A study of Homo sapiens with 23 samples.

Results

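The genes described here encode the moving core of motile cilia, the factors that assemble it and the transcription factors of that programme. They were taken by symbol from the RNA-seq tables of thalamus organoids (ThOs): the families DNAH, DNAI, DNAL, DNAAF, CFAP, DRC, RSPH, TEKT and ODAD, the factors FOXJ1 and RFX1 to RFX4, and HYDIN, ZMYND10, SPAG6, SPAG16, SPAG17, TPPP3, PIFO, EFHC2, STK33, ARMC3 and their like. The tables listed 54 such genes among 9497 genes in all. Another 82 protein-coding symbols that the same rule takes from RefSeq were not listed and were not analysed here, and they are not shown to be silent, because every listed gene had a value of at least 11 in each library. Of the dynein heavy chains (DNAH) 8 of 13 were listed, of the CFAP family 15 of 51, of the assembly factors named DNAAF 5 of 11, of the radial spoke heads (RSPH) 2 of 8, and of the docking complex genes named ODAD 0 of 4.

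Motile cilia beat because dynein motors slide the paired microtubules of the axoneme against each other. The motors are built and folded in the cytoplasm by assembly factors, are carried into the cilium, and are held in step there by radial spokes, the nexin-dynein regulatory complex and a central pair of microtubules. FOXJ1 switches on many of these genes, and RFX factors bind the X-box motif in their promoters. In the brain the ependyma that lines the ventricles and the choroid plexus carry motile cilia, whereas neural progenitors carry a single primary cilium that has no such motors.

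The ThOs were grown from the human embryonic stem cell line H1, and 12 RNA-seq libraries were analysed, each from 3 pooled organoids. WT libraries came from unedited H1, KO libraries from H1 whose c-JUN gene had been targeted by CRISPR/Cas9, and OE libraries from the KO line with c-JUN put back (labelled KO+cJun), which the methods of the study describe as a tet-on plasmid induced with doxycycline. Each genotype was sampled at day 25 and at day 30 of differentiation with 2 libraries per group. The labels do not say which KO clone was sequenced, nor whether the libraries of a group came from separate cultures, so p-values measure only the spread between these libraries. They also name the tissue as embryonic stem cells, although the samples are organoids, and the neuronal, radial glial and roof plate markers described further on were all measured in them. The values are the normalized whole numbers of the deposited tables, on a scale that runs from 11 to 9910 with a median of 106 in each library. The sequencing depth behind them is unknown.

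The gene total of JUN was not lower in the libraries labelled KO than in WT. Its values were 139 and 153 in WT and 353 and 196 in KO at day 25, and 128 and 162 in WT and 222 and 248 in KO at day 30. In OE they were 224 and 212 at day 25 and 362 and 202 at day 30. Over both days JUN was 0.77 higher in KO than in WT on the log2 scale (SE 0.23, adjusted p = 0.197, limma), and all 4 KO libraries lay above all 4 WT libraries. Of all genes, 5.88% did not overlap in this comparison. The study reported that c-JUN protein was absent from its KO lines by western blot. By RT-qPCR it found no c-JUN mRNA in KO neural progenitors and cerebral organoids, which are not the samples analysed here. In ThOs of day 25 it reported from ATAC-seq that c-JUN was less accessible in KO than in WT and OE. Accessibility is not a measure of RNA. Gene totals do not show whether the edited part of the transcript is present, so KO and OE below stand for libraries labelled KO and OE. Spearman correlations to the other libraries had a median of 0.745 in KO day 30 replicate 2, the lowest of the 12, and the KO replicates correlated with each other at 0.821 (day 25) and 0.769 (day 30), against 0.936 to 0.959 in the other groups.

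Among the 12 libraries, a single one carried most of the high values of the cilia genes. The library labelled KO day 25 replicate 2 held the highest value of 42 of the 54 genes, whereas it held the highest value of 14.7% of all genes (ties counted in each library). Summed over the 54 genes its value was 13738, and the other libraries lay between 3760 and 7422. Next came OE day 30 replicate 1 with 7422 and KO day 30 replicate 2 with 7073. The lowest sums were those of OE day 25 replicate 1 (3760), OE day 30 replicate 2 (3939) and OE day 25 replicate 2 (4243). Of the 54 genes, 22 had their lowest value in OE day 25 replicate 1 and 13 in OE day 30 replicate 2, against 4.64% and 7.51% of all genes. In a bulk library, fewer ciliated cells and less RNA per ciliated cell cannot be told apart.

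**Figure D1:**
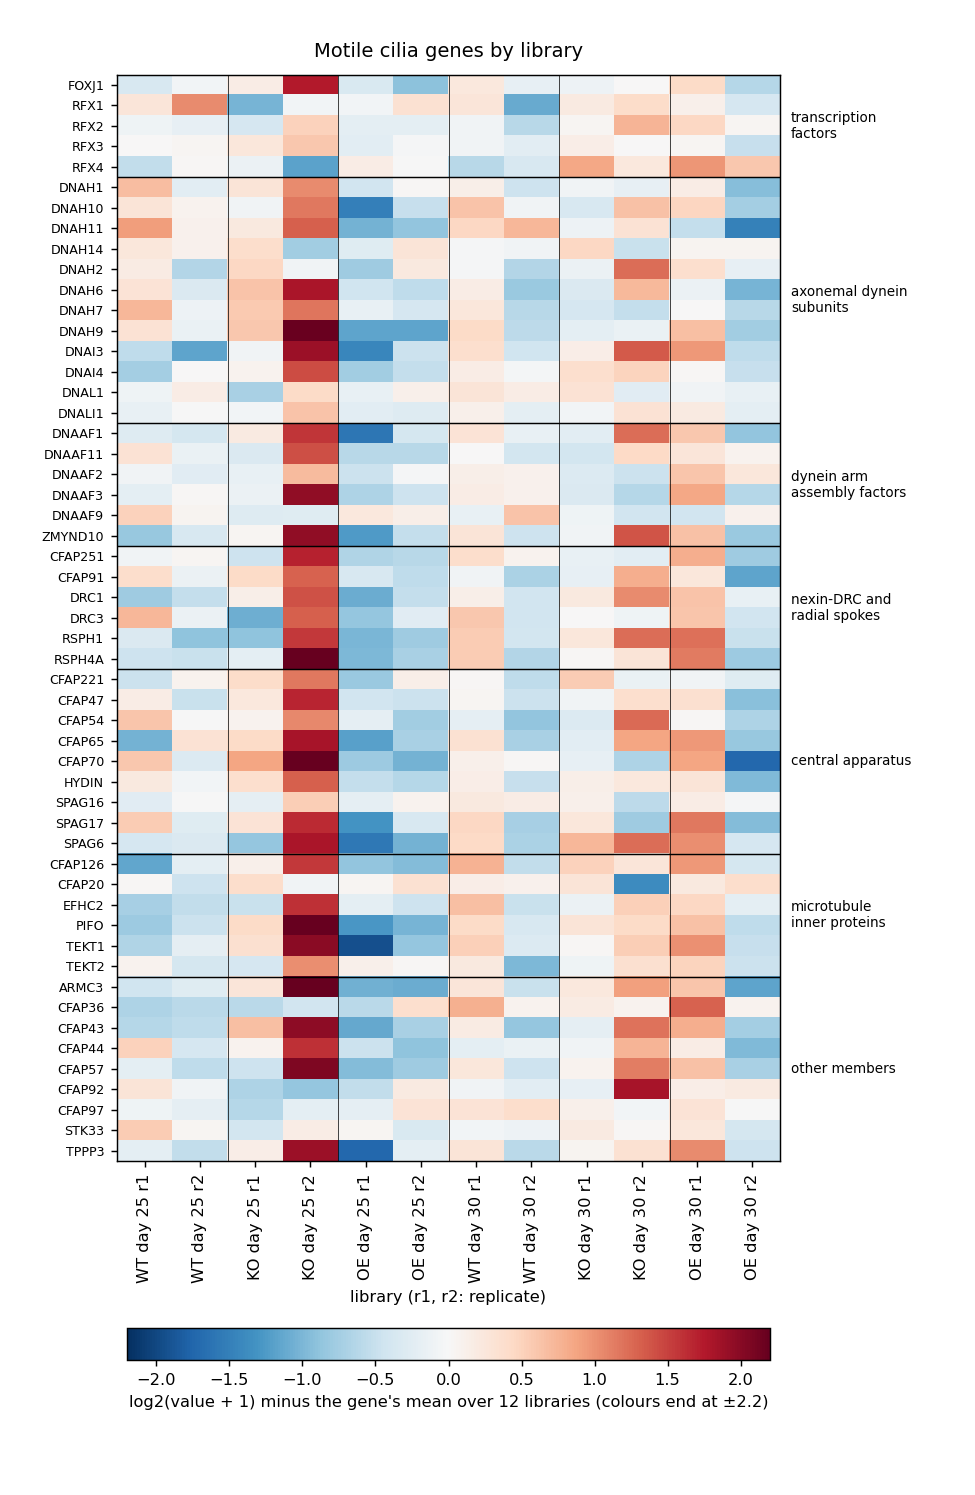
Each row is 1 of 53 motile cilia genes, ordered by role, and each column 1 of the 12 libraries; colour gives log2(value + 1) minus the mean of that gene over the 12 libraries. The column of KO day 25 replicate 2 is the highest for most genes, the OE day 25 columns and OE day 30 replicate 2 are mostly blue, and RFX1, RFX4, DNAH14, CFAP92 and CFAP97 are among those not highest in KO day 25 replicate 2.

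Replicates of 1 group were at least 2-fold apart for 34 of the 54 genes in KO day 25 (63.0%, against 17.4% of all genes), and 32 of these were higher in replicate 2. The same held for 28 genes in OE day 30 (51.9%, against 3.23% of all genes), all lower in replicate 2, and for 10 genes in WT day 30 (18.5%, against 1.75%), again all lower in replicate 2. In KO day 30 the share was 24.1%, near the 21.5% of all genes. The WT day 25 replicates were the closest, with 1 gene (1.85%) at least 2-fold apart against 4.45% of all genes, and 4 genes (7.41%, against 2.15%) were so in OE day 25.

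**Figure D2:**
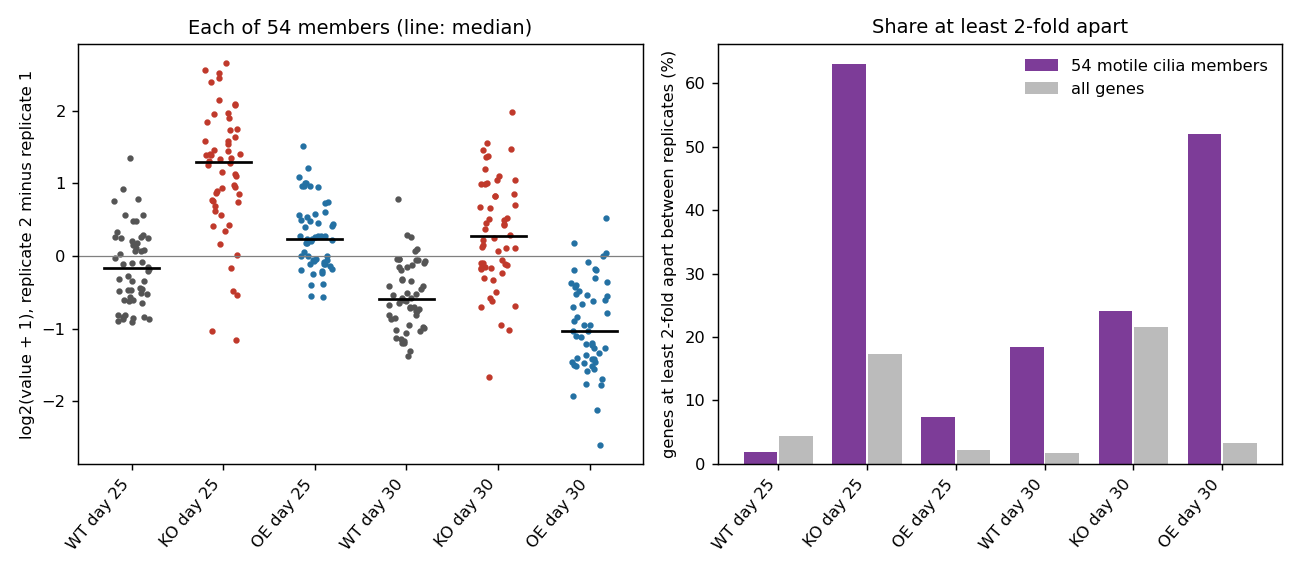
Left, log2(value + 1) of replicate 2 minus replicate 1 for each of the 54 genes in the 6 groups, with the median as a line; right, the percent of the 54 genes and of all 9497 genes that were at least 2-fold apart between the replicates. Most genes lie above 0 in KO day 25 (median 1.29) and below 0 in OE day 30 (median -1.04), and their bars exceed those of all genes most in these 2 groups.

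Among the transcription factors, FOXJ1 followed this pattern. Its values were 270 and 330 in WT day 25, 388 and 1159 in KO day 25, and 272 and 185 in OE day 25. At day 30 they were 403 and 303 in WT, 318 and 346 in KO, and 462 and 224 in OE. KO day 25 replicate 2 was thus far above every other library, while the day 30 groups overlapped. The mean of KO day 25 was 773.5 ± 545 (SD, n = 2) against 300.0 ± 42.4 in WT day 25, and the difference was 1.17 on the log2 scale (adjusted p = 0.309, SE 0.46), or 0.38 with replicate 1 alone. RFX3, which with RFX2 drives ciliary genes, was the steadiest of the 5 factors, between 501 and 1082, with 853 and 1082 in KO day 25 against 722 and 734 in WT day 25 (log2 fold change 0.40, SE 0.20, adjusted p = 0.422). RFX2 lay between 52 and 134, with its highest value in KO day 30 replicate 2.

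RFX1 and RFX4 did not follow FOXJ1. RFX1 had 38 and 66 in WT day 25 and 15 and 30 in KO day 25, with no overlap (log2 fold change -1.20, SE 0.51, adjusted p = 0.343). In this comparison 40.6% of all genes did not overlap. At day 30 its values were 38 and 14 in WT and 36 and 42 in KO, which overlap. RFX4, a factor of the neural tube and brain, had its lowest value, 55, in KO day 25 replicate 2, where FOXJ1 was highest. At day 30 RFX4 was 82 and 98 in WT, 226 and 147 in KO, and 246 and 190 in OE. Both KO values lay above both WT values at day 30 (log2 fold change 1.02, SE 0.36, adjusted p = 0.643), and over both days OE was 0.80 above WT (SE 0.26, adjusted p = 0.394), so neither difference passed the adjusted test. Of all genes, 33.9% did not overlap between KO and WT at day 30.

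**Figure D3:**
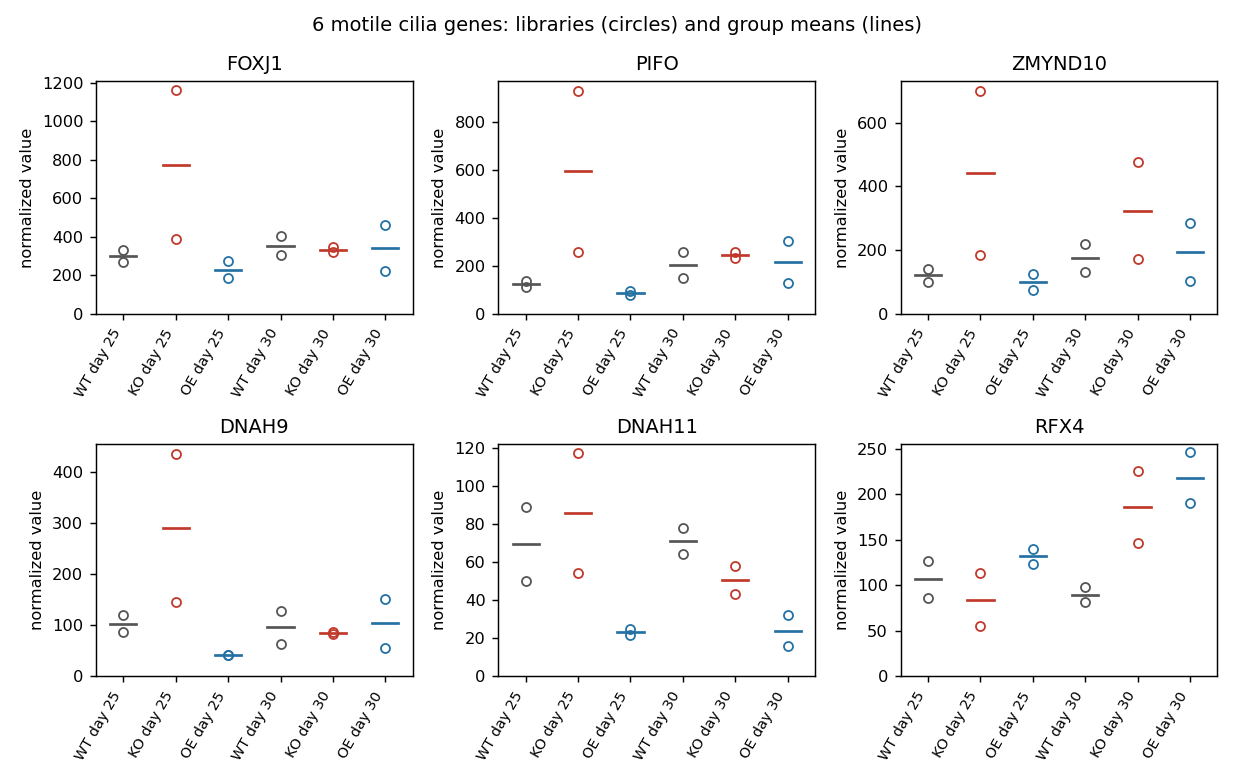
Normalized value (linear axis from 0) of FOXJ1, PIFO, ZMYND10, DNAH9, DNAH11 and RFX4 in the 6 groups; circles are libraries, 2 per group, and lines are group means. A single KO day 25 library carries the high mean of FOXJ1 (1159), PIFO (926), ZMYND10 (700) and DNAH9 (435), whereas the 4 OE libraries of DNAH11 lie between 16 and 32 and RFX4 is higher in KO and OE than in WT at day 30.

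The promoters of these genes share short sequences that the choice of genes did not use. RefSeq promoter windows (GRCh38.p14, 250 bases before to 50 bases after the start) were at hand for 40 of the 54 genes. The RFX half-site GTTGCC, searched on both strands as all motifs here, stood in 18 of the 40 (45.0%), in 12.8% of the 7900 windows of all listed genes and in 12.2% of all 27305 windows. The paired X-box, the letters GTNNCC and GGNAAC with 2 free bases between them, stood in 7 of the 40 (17.5%), against 1.92% of listed genes and 1.46% of all windows. The forkhead core GTAAACA, the kind of site FOXJ1 binds, stood in 4 (10.0%), against 2.19% and 3.41%. The AP-1 site TGANTCA, to which c-JUN dimers bind, stood in 0 of the 40, against 3.86% and 7.76%. A match is a run of letters and not a measured binding site, and its absence from these windows says nothing of c-JUN elsewhere.

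The 7 windows with the paired X-box are shown because they hold the most complete form of the RFX motif, and they include that of DNAH11, the gene whose difference between OE and KO passed the adjusted test. Capitals mark the paired X-box, which may match on either strand, and lower case gives up to 30 bases on each side, upstream of the start. All 7 genes lie on the plus strand. The stretches are chr3:52316184-52316257 for DNAH1, chr7:21542981-21543038 for DNAH11, chr17:7717696-7717743 for DNAH2 and chr1:37556893-37556939 for DNALI1 among the dynein subunits. They are chr2:213284250-213284323 for SPAG16 and chr10:22345442-22345495 for SPAG6, of the central apparatus, and chr12:121918530-121918591 for CFAP251, of the radial spokes.
DNAH1: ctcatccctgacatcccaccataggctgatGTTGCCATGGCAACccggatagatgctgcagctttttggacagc
DNAH11: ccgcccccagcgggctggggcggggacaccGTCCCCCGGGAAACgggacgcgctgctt
DNAH2: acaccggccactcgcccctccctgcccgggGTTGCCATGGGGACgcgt
DNALI1: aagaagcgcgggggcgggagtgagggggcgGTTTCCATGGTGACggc
SPAG16: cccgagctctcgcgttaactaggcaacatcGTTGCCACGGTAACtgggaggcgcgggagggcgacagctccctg
SPAG6: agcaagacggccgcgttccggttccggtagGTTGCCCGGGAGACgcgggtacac
CFAP251: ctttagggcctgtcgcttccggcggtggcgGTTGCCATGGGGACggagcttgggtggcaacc
In 5 of the 7 the capitals also hold the half-site, so both counts share these promoters. The paired X-box began 17 to 32 bases before the start in DNAH11, DNAH2, DNALI1, SPAG6 and CFAP251, and 105 and 184 bases before it in DNAH1 and SPAG16. The median log2 fold change of OE against KO at day 25 was -0.85 over these 7 genes and -1.53 over the 33 without a paired X-box, and it was -1.47 over the 18 genes with a half-site and -1.23 over the 22 without. Over the 4 genes with a forkhead core it was -1.99, against -1.29 over the 36 without. These medians are a description of promoter letters beside the readout, with no test.

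**Figure D4:**
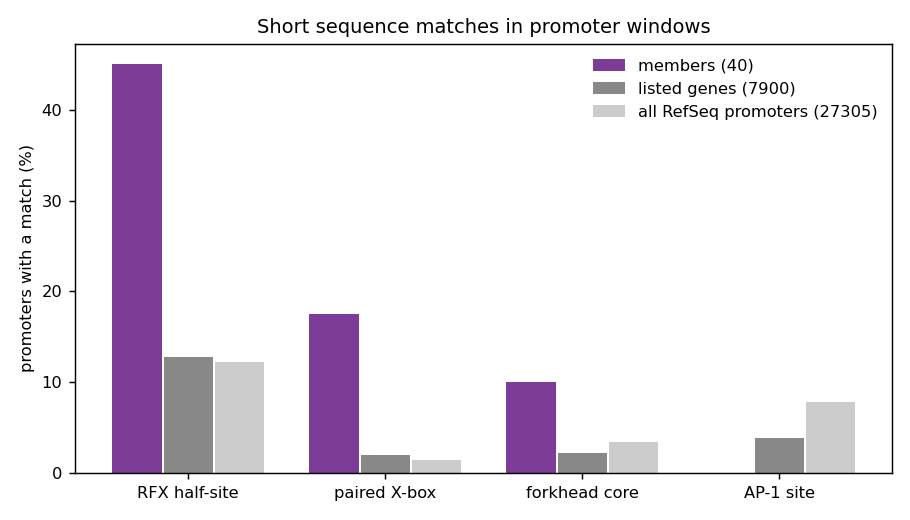
Percent of promoter windows with at least 1 match to each of 4 short motifs, for the 40 members with a window, the 7900 listed genes with a window and all 27305 RefSeq windows. The share among members is 45.0% for the half-site and 17.5% for the paired X-box, above both other bars, and 0 for the AP-1 site.

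The first question was whether the genes differ when c-JUN is targeted. At day 25, 45 of the 54 genes were higher in KO than in WT, with a median log2 fold change of 0.77 against -0.02 over all genes. The adjusted test (limma, adjusted p under 0.05 and at least 2-fold) called 0 of the 54, and it called 0.0105% of all genes. At an unadjusted p under 0.05 with at least 2-fold, 13 genes were higher and 1 was lower, where 2.46% and 2.84% of all genes were higher and lower. These 13 rest on replicate 2. Without KO day 25 replicate 2 the median log2 fold change was 0.19, 35 of the 54 genes were higher, and 1 gene was higher and 2 were lower at the unadjusted p. Without replicate 1 the KO group was replicate 2 alone. The log2 fold change of PIFO was then 2.90, and the unadjusted count was higher. Leaving out a WT library of day 25 gave a count of 7 in either case. Taken singly, KO day 25 replicate 1 lay above both WT libraries for 27 of the 54 genes and replicate 2 for 45, where either did so for 37.7% of all genes.

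By role, all 7 microtubule inner proteins, which line the inside of the axonemal microtubules, were higher in KO than in WT at day 25, with a median log2 fold change of 1.19, and all 9 central apparatus genes were higher, with a median of 0.82. The medians were 0.84 for the 6 genes of the nexin-dynein regulatory complex and radial spokes, 0.73 for the 6 dynein arm assembly factors and 0.43 for the 12 axonemal dynein subunits. Without KO day 25 replicate 2 the microtubule inner proteins kept a median of 0.71 and the central apparatus 0.30, whereas the assembly factors had -0.02 and the regulatory complex and spokes -0.01.

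PIFO, a protein of ciliary microtubules, differed most. It had 110 and 138 in WT day 25 and 258 and 926 in KO day 25 (log2 fold change 1.98, SE 0.53, adjusted p = 0.195). Both KO libraries were above both WT libraries, and the log2 fold change with replicate 1 alone was 1.06. Of all genes, 40.6% did not overlap between KO and WT at this day. CFAP43, which ties an inner dynein arm to the microtubule, had 68 and 71 in WT and 167 and 415 in KO (log2 fold change 1.91, SE 0.61, adjusted p = 0.240). DNAI3, an intermediate chain of an inner arm, had 34 and 22 in WT and 48 and 190 in KO (1.77, SE 0.70, adjusted p = 0.315). TEKT1, a tektin filament protein, had 40 and 56 in WT and 82 and 256 in KO (SE 0.62, adjusted p = 0.303). ZMYND10, an assembly factor of dynein arms, had 101 and 141 in WT and 186 and 700 in KO (1.59, SE 0.67, adjusted p = 0.334). With KO day 25 replicate 2 left out the log2 fold changes were 1.25 for CFAP43, 0.79 for DNAI3, 0.78 for TEKT1 and 0.64 for ZMYND10. In each of these 5 genes KO replicate 1 exceeded both WT values by less than replicate 2 exceeded replicate 1.

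At day 30 the same question gave smaller differences. Of the 54 genes 37 were higher in KO than in WT, with a median log2 fold change of 0.25 that was -0.01 without WT day 30 replicate 2. The adjusted test called 0 of them and 0% of all genes. At the unadjusted p, 1 gene was higher (RFX4) and 0 were lower, where 1.41% of all genes were higher and 1.53% lower. KO day 30 replicate 2 lay above both WT libraries for 32 genes, against 43.7% of all genes, and replicate 1 for 12, against 32.5%. Without KO day 30 replicate 1, whose group then rests on replicate 2 alone, the adjusted and unadjusted counts were both higher. ZMYND10 had 220 and 132 in WT and 172 and 476 in KO at day 30, and DNAH9 had 128 and 64 against 82 and 86, so their groups overlapped. Over the mean of both days 42 genes were higher, with a median log2 fold change of 0.53, the adjusted test called 0 of the 54 and 0.0211% of all genes, and 6 were higher and 0 lower at the unadjusted p (1.07% and 1.01% of all genes). With KO day 25 replicate 2 left out the 6 became 1 and the median 0.22. The other libraries that moved this count past 1.5-fold were KO day 25 replicate 1 (20 without it), KO day 30 replicate 1 (10, with 2 called by the adjusted test), KO day 30 replicate 2 (2) and WT day 30 replicate 2 (1).

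The change of the KO-WT difference from day 25 to day 30 was tested directly. It was negative for 42 of the 54 genes, but it passed the adjusted test in 0 of the 54 and in 0% of all genes, with a smallest adjusted p of 0.802. At an unadjusted p under 0.05 there were 4 genes, against 5.63% of all genes. These were RFX4 (1.41, SE 0.52), RFX1 (1.92, SE 0.72) and CFAP92 (1.84, SE 0.78), whose KO-WT log2 fold change was below 0 at day 25 and above 0 at day 30, and PIFO (-1.66, SE 0.75), for which it was 1.98 and 0.32. For RFX1 the values were -1.20 and 0.72, for RFX4 -0.40 and 1.02, and for CFAP92 -0.87 and 0.97. The negative value of RFX4 at day 25 rests on KO replicate 2. RFX4 had 114 and 55 in KO and 86 and 127 in WT at that day, so KO replicate 1 lay between the WT values. CFAP92 was named after its values were seen. Its values were 36 and 28 in WT and 18 and 16 in KO at day 25, and 28 and 25 in WT and 26 and 106 in KO at day 30, where 106 was by far its highest.

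**Figure D5:**
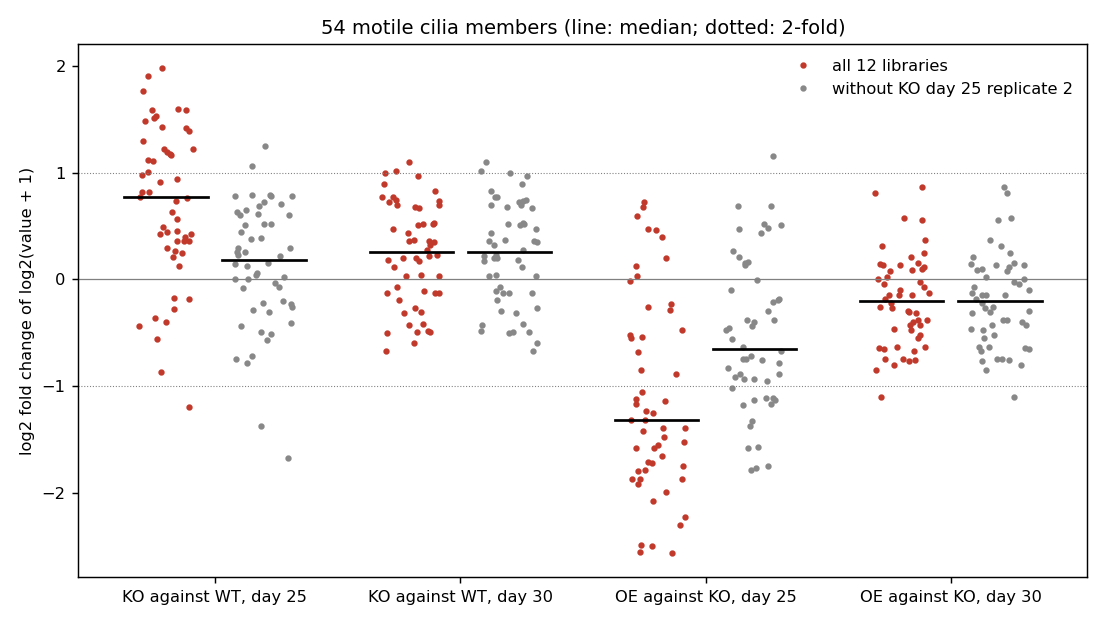
Log2 fold change on the log2(value + 1) scale for each of the 54 genes in 4 comparisons, from all 12 libraries (red) and without KO day 25 replicate 2 (grey); black lines are medians and dotted lines mark 2-fold. Leaving out the 1 library moves the median from 0.77 to 0.19 for KO against WT and from -1.32 to -0.65 for OE against KO at day 25, and leaves the day 30 medians at 0.25 and -0.20.

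The second question was whether the genes differ between the libraries labelled OE and those labelled KO. At day 25, 45 of the 54 genes were lower in OE than in KO, with a median log2 fold change of -1.32. The adjusted test called 0 of the 54 and 0.274% of all genes, with a smallest adjusted p of 0.0661 among the 54. At the unadjusted p 0 genes were higher and 30 were lower, where 4.25% of all genes were higher and 4.32% lower. Leaving out KO day 25 replicate 2, 41 of the 54 were lower, the median was -0.65 and the unadjusted count was 5. Without OE day 25 replicate 1, the library with the lowest sum, the count was 15. Without KO day 25 replicate 1, where replicate 2 alone stood for KO, the adjusted test called some of the genes, all lower. KO day 25 replicate 1 by itself lay above both OE libraries for 39 of the 54 genes, against 40.3% of all genes, and replicate 2 for 45, against 39.5%.

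TEKT1 had 82 and 256 in KO day 25 and 16 and 35 in OE day 25 (log2 fold change -2.56, SE 0.62, adjusted p = 0.0781). DNAH9, an outer arm heavy chain, had 145 and 435 in KO and 42 in both OE libraries (-2.55, SE 0.55, adjusted p = 0.0675). PIFO had 258 and 926 in KO and 78 and 94 in OE (-2.50, SE 0.53, adjusted p = 0.0661). In these 3 genes both OE values were also below both WT values, which for DNAH9 were 120 and 86. CFAP70, grouped here with the central apparatus, had 78 and 209 in KO and 24 and 20 in OE (-2.49, SE 0.72, adjusted p = 0.117). ARMC3 had 98 and 383 in KO and 39 and 38 in OE (-2.30, SE 0.64, adjusted p = 0.111). Leaving out KO day 25 replicate 2 gave log2 fold changes of -1.75 for TEKT1, -1.76 for DNAH9, -1.58 for PIFO, -1.79 for CFAP70 and -1.33 for ARMC3. Leaving out replicate 1 in its place gave -3.38 for TEKT1, -3.34 for DNAH9, -3.42 for PIFO, -3.20 for CFAP70 and -3.28 for ARMC3.

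By role, the median log2 fold changes of OE against KO at day 25 lay between -1.27 (dynein subunits) and -1.53 (other members), apart from -0.29 for the 5 transcription factors. At the unadjusted p, 7 of 12 dynein subunits, 7 of 9 central apparatus genes, 4 of 7 microtubule inner proteins, 3 of 6 assembly factors and 3 of 6 genes of the regulatory complex and spokes were lower, where 4.32% of all genes were. With KO day 25 replicate 2 left out these counts were 2, 0, 3, 0 and 0 in the same order, and the medians of these roles lay between -0.37 and -1.02. RSPH4A, a radial spoke head protein, had 57 and 340 in KO and 33 and 40 in OE (-1.91, SE 0.77, adjusted p = 0.228), and its log2 fold change was -0.64 with that library left out. The genes whose difference was 0 or above were DNAH14, DNAL1, DNAAF9, CFAP20, CFAP36, CFAP92, CFAP97, RFX1 and RFX4, between 0.03 and 0.73.

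At day 30, 36 of the 54 genes were lower in OE than in KO, with a median log2 fold change of -0.20. The adjusted test called 0 of the 54 and 0.0842% of all genes, and 0 genes were higher and 1, DNAH11, was lower at the unadjusted p (2.71% and 2.67% of all genes). OE day 30 replicate 1 lay above both KO libraries with 301 for PIFO and 152 for DNAH9, while replicate 2 lay below both with 130 and 56. The median was 0.23 with replicate 2 left out, -0.68 with replicate 1 left out and 0.02 with KO day 30 replicate 2 left out, so 1 library decided its sign. Leaving out OE day 30 replicate 1 or 2 gave unadjusted counts of 4 and 0, and leaving out the KO library of that day and number gave 5 and 0. Without KO day 30 replicate 1, where replicate 2 alone stood for KO at that day, the adjusted test called genes in both directions. Over both days 45 genes were lower, with a median log2 fold change of -0.79, and 17 were lower and 0 higher at the unadjusted p, against 2.63% and 2.35% of all genes. The adjusted test called 1 of the 54 genes, DNAH11, and it called 2.22% of all genes. When KO day 25 replicate 2 was left out the median was -0.46 and the unadjusted count was 3. Left out 1 at a time, replicate 1 of KO day 25 gave a count of 29, that of OE day 30 gave 27 and that of OE day 25 gave 10, while replicate 2 of KO day 30 gave 8 and that of OE day 30 gave 4.

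DNAH11, a heavy chain of the outer dynein arm, fell in OE. Its values were 54 and 117 in KO and 22 and 25 in OE at day 25, and 43 and 58 in KO and 32 and 16 in OE at day 30. In WT they were 89 and 50 at day 25 and 64 and 78 at day 30. All 4 OE libraries lay below all KO and all WT libraries. Between OE and WT over both days, 8.47% of all genes did not overlap. The log2 fold change over both days was -1.41 (SE 0.33, adjusted p = 0.0422) against KO, and it was -1.53 (SE 0.33, adjusted p = 0.127) against WT. The call against KO was near the threshold: the adjusted p was 0.0816 when KO day 25 replicate 2 was left out, 0.119 and 0.142 for OE day 25 replicates 1 and 2, 0.110 for KO day 30 replicate 2 and 0.189 for OE day 30 replicate 2. It was also over 0.05 in a fit of only the KO and OE libraries (0.120). The number of genes called was 0 in each of these fits. It rose with replicate 1 of KO left out at either day, and with replicate 1 of OE left out at day 30, each of which left 1 library in a group. DNAH11 (chr7:21543039-21901839, plus strand) shares 941 bases with CDCA7L on the minus strand, and whether the counting used strand is not given in the sources used here. CDCA7L had 56 and 77 in KO and 40 and 54 in OE at day 25, and 138 and 222 in KO and 90 and 42 in OE at day 30, with 44 to 74 in WT. Its OE values thus lay below its KO values at both days, as those of DNAH11 did, while its highest values were in KO day 30. Whether the overlap has a part in the DNAH11 values was not tested. In all, 13 of the 54 genes overlap another protein-coding gene. DNAI4, an intermediate chain of an inner dynein arm, was the other gene whose KO and OE libraries did not overlap over both days: KO had 128, 328, 157 and 170, OE had 71, 84, 123 and 85 (-1.03, SE 0.29, adjusted p = 0.0760, and -0.70 with KO day 25 replicate 2 left out). These were 2 of the 54 genes, whereas 9.68% of all genes did not overlap in this comparison.

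OE and WT differed little over the genes as a whole. Over both days 42 of the 54 were lower in OE, with a median log2 fold change of -0.19. The adjusted test called 0 of the 54 and 0.158% of all genes, and at the unadjusted p 0 were higher and 1, DNAH11, was lower (0.474% and 0.716% of all genes). The median was 0.02 without OE day 30 replicate 2, and the unadjusted count was 3 without OE day 30 replicate 1 and 2 without OE day 25 replicate 2. This comparison shares the OE libraries with the one against KO. Between day 30 and day 25, averaged over genotypes, 30 genes were higher and 24 lower, with a median of 0.07. The adjusted test called 0 of the 54 and 0% of all genes, and 0 were higher and 0 lower at the unadjusted p (0.158% and 0.253% of all genes). The median was below 0 without KO day 25 replicate 1 (-0.11), WT day 30 replicate 1 (-0.01) or OE day 30 replicate 1 (-0.05), and at the unadjusted p 2 genes were higher when KO day 25 replicate 2 was left out and 3 when OE day 30 replicate 2 was.

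Other motile cilia genes, whose symbols lie outside the rule, were read from a list of 66 symbols, of which 31 were listed. KO day 25 replicate 2 held the highest value of 24 of the 31. Their median log2 fold change was 0.65 for KO against WT and -0.81 for OE against KO at day 25, and the adjusted test called 0 in either. At the unadjusted p 4 were higher and 0 lower in the first, where 2.46% and 2.84% of all genes were, and 0 were higher and 11 lower in the second, where 4.25% and 4.32% were. Leaving out that library gave medians of 0.25 and -0.29, with 0 higher and 0 lower in the first and 1 higher and 2 lower in the second. GMNC, a coiled-coil regulator at the start of the multiciliated cell programme, had 52 and 74 in WT, 72 and 228 in KO and 32 and 38 in OE at day 25. ENO4 and ROPN1L, named after their values were seen, had 140 and 173 in KO day 25 replicate 2 and 12 each in replicate 1, the lowest and joint lowest of their values. TUBA1A, a tubulin that all cells of the organoid use, stood at the top of the scale, 9910, in every library. Of intraflagellar transport and BBSome genes, which primary and motile cilia share, 30 were listed. Their medians were 0.22 for KO against WT and -0.49 for OE against KO at day 25, or 0.05 and -0.15 with KO day 25 replicate 2 left out, and that library held the highest value of 14 of the 30. At the unadjusted p 1 of the 30 was higher and 0 lower in the first and 0 higher and 1 lower in the second, shares near those of all genes (2.46% higher and 4.32% lower). The gene that was lower, KIFAP3, which encodes the adaptor subunit of the kinesin motor that carries cargo into cilia, was called by the adjusted test. It had 242 and 243 in WT, 500 and 532 in KO and 252 and 243 in OE at day 25 (OE against KO log2 fold change -1.06, SE 0.18, adjusted p = 0.0439), so its KO replicates lay close together. Over the alternatives its log2 fold change was between -1.01 and -1.10, but its adjusted p was between 0.0126 and 0.278, and it was 0.0507 without KO day 25 replicate 2, 0.240 without OE day 25 replicate 1 and 0.278 without OE day 25 replicate 2. At day 30 it had 432 and 496 in WT, 365 and 401 in KO and 318 and 357 in OE.

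Markers of other cell types differed between the libraries, and not all in those where the cilia genes were high or low. Choroid plexus markers, of which 9 of 10 were listed, summed to 2118 and 5675 in KO day 25, and the range was 2408 to 3269 in WT day 25, 2136 to 4920 in OE day 25, 3240 to 5385 in WT day 30, 2671 to 4546 in KO day 30 and 4349 to 4892 in OE day 30. KO day 25 replicate 2 held the highest value of 4 of the 9, against 14.7% of all genes. FOLR1 had 346 there and 24 to 216 elsewhere, CLIC6 364 and 45 to 222, and KCNJ13 255 and 102 to 252. OTX2, CLDN1, CLDN5, KRT8 and KRT18 were highest in other libraries. TTR had 3453 there and 3452 in both OE day 25 replicate 1 and OE day 30 replicate 2, where the cilia genes were lowest. VIM also had 3452 in these 2 OE libraries, so different genes share this value and near ties need not mean equal RNA. The 2 listed mesenchyme markers of 6, COL1A2 and PDGFRA, summed to 408 and 874 in KO day 25 and to 115 to 472 in the other groups. Roof plate markers (7 of 9 listed) summed to 2627 to 2761 in KO day 25, 1609 to 2348 in KO day 30, 1549 to 1661 in WT day 25, 1063 to 1380 in WT day 30, 1466 to 2314 in OE day 25 and 1044 to 1500 in OE day 30. RSPO2 went the other way from the rest of this list at day 25. It had 436 and 580 in WT, 26 and 28 in KO, and 1606 and 678 in OE. RSPO2 alone thus made up 1606 of the sum of 2314 and 678 of the sum of 1466 in OE day 25. LMX1B had 134 and 112 in WT, 525 and 388 in KO, and 22 and 72 in OE. Radial glia markers (6 of 9 listed) were lowest in KO day 25 replicate 2, with a sum of 3613 against 5330 to 13242 elsewhere, and PTPRZ1 had 148 there. VIM alone made up 9910 of the 13242, the sum of WT day 25 replicate 1.

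Cycling cell markers (6 of 6 listed) summed to 1297 to 1458 in KO day 25, 1310 to 1825 in KO day 30, 1635 to 2328 in WT and 2455 to 2721 in OE. Neuronal markers (8 of 8 listed) lay between 6268 and 9753 in all groups, and the 3 listed thalamus markers of 7 had 345 in KO day 25 replicate 2 and 249 to 1057 elsewhere. Of the 7 ependymal and multiciliated markers 3 were listed. FOXJ1 is itself among the 54 genes, C9orf24 had 375 in KO day 25 replicate 2 and 18 to 144 elsewhere, and TMEM212 had 64 there and 238 in WT day 25 replicate 1. None of these markers can be at 0, since the tables hold no lower value than 11. The part of these markers in the differences of the cilia genes was not tested.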

How the data were processed

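RNA-seq was analysed for 12 libraries of H1-derived ThOs (WT, KO and OE, day 25 and day 30, 2 each); ATAC-seq and CUT&Tag samples were not analysed here. The authors deposited, per library, a normalized value per gene rounded to whole numbers, treated here as a score because the normalization is not given in the sources used here. Minimum, median and maximum are identical in all 12 tables, the pattern that quantile normalization leaves, so total RNA changes cannot be seen and depth and its precision are unknown. The submitters' processing notes name bcl2fastq, RSEM, Bowtie2 and hg19, but the positions of all 9386 symbols matched to RefSeq overlap GRCh38.p14, whose positions are printed.

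The test was limma 3.58.1 (R 4.3.3) on log2 of the value plus 1: 1 mean for each of 6 groups, empirical Bayes with intensity trend (6 residual and 5.29 prior degrees of freedom), two-sided, Benjamini-Hochberg adjustment over all 9497 genes. The filter (value of at least 1 in 2 libraries) removed 0 genes. A gene was called at adjusted p under 0.05 and at least 2-fold. Counts at an unadjusted p under 0.05 and at least 2-fold are uncorrected descriptions. The study's methods give p under 0.05 and at least 2-fold for differential expression, and an adjusted p of 0.05 for volcano plots. Fold changes are on the log2(value + 1) scale. Scripts were tested on simulated data.

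Members and lists were chosen with earlier results of these data known. Genes named with values were FOXJ1 and RFX1 to RFX4, called members, per comparison up to 5 per direction with the largest change at the unadjusted p whose libraries do not overlap, the member with the widest range of group means in each role, and JUN; others are said to be chosen after their values were seen or serve as examples of a list. Of the members 1 is counted but not reported here by itself. Genotypes came from the labels. Over all genes, same-numbered replicates did not pair: over 15 pairs of groups their deviations correlated at -0.214 to 0.262, over 0.1 in 1. Over the 54 genes the correlations were wider. They ran from -0.65 (KO day 25 with OE day 30) to 0.522 (WT day 30 with OE day 30). Promoter windows and positions are from RefSeq. Alternatives were other pseudocounts, filters and scalings, array weights, a replicate block, only the libraries compared, no fold threshold and leaving out each library.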

Additional observations from a re-analysis of the deposited data

Results flagged for a closer look

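Groups hold 2 libraries each, too few for a test of a library far from the rest, so the 4 libraries of each genotype over both days were examined for the summed value and for 16 named genes, 51 sets in all. The gap of an extreme library to its nearest neighbour, divided by the range, exceeded Dixon's critical value for 4 samples in 10 sets. Chance flags about 1 in 20 sets of independent values, but this rate does not apply here, since most of the 16 genes were named for large differences and they vary together over the same libraries, so the 10 are a description. Day is mixed into these sets. Among KO libraries, day 25 replicate 2 was the distant one for FOXJ1 (0.917), PIFO (0.963), RSPH4A (0.915) and TEKT1 (0.848), while the summed value of the 54 genes did not pass there (0.823). Among OE libraries, day 30 replicate 1 was the distant one, on the high side, for the summed value of the 54 genes (0.868), ARMC3 (0.966), CFAP43 (0.883), DNAH9 (0.873) and RSPH4A (0.939). Among WT libraries, day 30 replicate 1 was the distant one for RSPH4A (0.893), with 98 against 42 to 48. The distant library was the highest in all 10 sets.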

How the results depend on the processing

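Of 515 alternative values over 32 results, 433 kept their side of the threshold or a similar count. No gene changed direction in a comparison for which it was named by its change. Other fold changes of the named genes were not among the 32 results. Of these, RFX2, RFX4 and DNAH11 changed sign for KO against WT at day 25 without KO day 25 replicate 2. The median over the 54 genes did change sign without 1 library, in the comparisons at day 30, OE against WT and day 30 against day 25, as given beside them. The 1 gene called for OE against KO over both days, DNAH11, became 0 genes with the replicate block (smallest adjusted p 0.0611), with array weights, with only the libraries compared, and with both KO replicate 2 libraries left out, an alternative added after seeing the data; the cause was not tested. The replicate block changed no other call among the 54 genes, and the call of KIFAP3 was lost with it (adjusted p 0.0672). For OE against WT the count went from 0 to 1 (DNAH11) with array weights, with only the libraries compared and with both KO replicate 2 libraries left out. Fits without 1 library at a time called 0 to 1 genes for KO against WT at day 25, 0 to 3 at day 30 and 0 to 2 over both days, and for OE against KO 0 to 13 at day 25, 0 to 2 at day 30 and 0 to 12 over both days. The higher ends come from fits without KO replicate 1 of day 25 or day 30, whose lone remaining library is assumed to vary like the other groups. Counts from fits without 1 library are not set beside the share of all genes in the same fits. They show only how far a count depends on single libraries. With both KO replicate 2 libraries left out the unadjusted count of KO against WT over both days was 0, and with array weights it was 3. Unadjusted counts of KO against WT at day 25 (14 in both directions) were 4 with array weights and 3 with both KO replicate 2 libraries left out; those of OE against KO at day 25 (30) became 7 in the latter fit and those over both days (17) became 1. Without the fold threshold they were 27 for OE against KO over both days, 10 for KO against WT over both days and 4 for day 30 against day 25, from 17, 6 and 0. At a pseudocount of 5 the 1 gene at the unadjusted p became 0 for KO against WT and for OE against KO at day 30. Depth is unknown, so low values such as those of DNAAF11 (12 to 52) carry an unknown counting error.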
